A study of Homo sapiens with 6 samples.

Results

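Interferon-induced effector genes encode the proteins that act on a virus or on the infected cell once interferon signalling is on. The genes described here are 41 such effectors that belong to neither the IFIT, the oligoadenylate synthetase nor the ISG15 conjugation family. They were taken from a list of symbols, without regard to their level. Of the 41, 38 had values among 11079 genes and 30 had a mean of at least 1 FPKM, the level above which 10008 genes were tested. FPKM counts the fragments of a gene, scaled to its length and to the size of the library. The expression of MX1, MX2 and EPSTI1 was not analysed here.

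RNA-seq libraries were made from T24, a human bladder cancer cell line, in 2 groups of 3. One group, shBLACAT3, stably carried a lentiviral short hairpin RNA against BLACAT3, a long noncoding RNA transcribed from LINC01535, and its genotype is labelled as a BLACAT3 knockdown. The other, shControl, carried a control hairpin by the same route and is labelled WT. Both groups had been selected with puromycin, so all 6 libraries come from cells with a lentivirus and a hairpin. No interferon or virus treatment is labelled. The labels name 1 shBLACAT3 line and do not say whether it was a pool or a clone, nor whether the replicates were separate cultures, so each p-value rests on a spread between libraries that may be technical alone.

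In each library, the values summed to between 211958 and 226953 FPKM, and the read depth behind them is unknown. The targeted RNA was not analysed here, so the labels could not be checked against it. Of 16 markers of epithelial, leukocyte and endothelial cells, 3 had values, the epithelial keratins KRT7, KRT8 and KRT18, at means of 32.0, 22.1 and 74.2 FPKM in shBLACAT3 and 19.97, 60.7 and 112 FPKM in shControl. KRT8 and KRT18 were lower in shBLACAT3 (adjusted p 0.00039 and 0.022 in limma). The KRT8 call held with each library left out. That of KRT18 was lost without shControl replicate 1 or 3 or shBLACAT3 replicate 1 or 2 (adjusted p 0.0546 to 0.0893 in limma). KRT7 went the other way, with each shBLACAT3 library above each shControl library, but did not pass (log2 fold change 0.69, adjusted p 0.097). The part of these keratins in the results below was not tested. The other 13, among them EPCAM, CDH1 and all 9 leukocyte and endothelial markers, were not analysed here.

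As background, type I and type III interferons bind receptors whose kinases switch on transcription factors in the cytoplasm. STAT2 and IRF9 take part in a complex that binds the interferon-stimulated response element, ISRE, in the promoters of effector genes. Activated IRF3 and IRF7 bind closely related elements and can switch on part of the same genes without interferon. Type II interferon acts mainly through another element, GAS. Epithelial cells make most of these effectors at a low resting level.

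The ISRE bases stand near the start of many of the genes described here. The ISRE core was searched as GAAA, any pair of bases and GAAA again, on both strands, in the 250 bases before each start that RefSeq lists (GRCh38.p14), where 32 of the 41 genes had an entry. It was found in 21 of the 32, against 3.71% of all 27305 genes with a window. The stretches below belong to genes ordered by the percent of their shControl mean left in shBLACAT3, lowest first, are written along the gene's own strand, and carry the core in capitals. Where the core lies on the opposite strand it reads TTTC, a pair of bases and TTTC.

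RSAD2: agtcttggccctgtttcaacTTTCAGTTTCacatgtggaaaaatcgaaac
BST2: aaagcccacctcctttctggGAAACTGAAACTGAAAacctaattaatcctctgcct
IFI44: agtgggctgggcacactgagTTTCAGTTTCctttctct
IFI44L: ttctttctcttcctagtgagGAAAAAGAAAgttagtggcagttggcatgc
IFITM1: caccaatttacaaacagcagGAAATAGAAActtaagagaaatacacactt
IFI27: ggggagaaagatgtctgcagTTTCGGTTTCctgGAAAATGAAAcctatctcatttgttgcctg
DDX60: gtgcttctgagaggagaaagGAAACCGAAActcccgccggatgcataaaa
IFITM3: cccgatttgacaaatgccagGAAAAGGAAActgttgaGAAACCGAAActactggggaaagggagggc
PARP9: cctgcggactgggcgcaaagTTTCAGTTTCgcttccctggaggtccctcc
NMI: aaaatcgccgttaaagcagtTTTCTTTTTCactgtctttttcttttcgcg

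These lie at chr2:6877612-6877661 (plus strand) for RSAD2, chr19:17405725-17405780 (minus) for BST2, chr1:78649751-78649788 (plus) for IFI44 and chr1:78620264-78620313 (plus) for IFI44L. Those of IFITM1 and IFITM3 lie at chr11:313980-314029 (plus) and chr11:320866-320932 (minus), and that of IFI27 at chr14:94110608-94110670 (plus). DDX60 has its stretch at chr4:168318776-168318825 (minus), PARP9 at chr3:122564312-122564361 (minus) and NMI at chr2:151289802-151289851 (minus). The 50 bases shown for IFI44L occur again, letter for letter, at chr1:78620355-78620404, closer to its start. BST2 has overlapping cores. RSAD2, IFI44, GBP1 and PARP9 share the same 10 letters, TTTCAGTTTC, which read GAAACTGAAA on the opposite strand. GAAACTGAAA stands in BST2 and, not printed above, in SAMD9, ISG20 and a further core of DDX60.

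The comparison asked how these effectors respond when BLACAT3 is knocked down. They were lower in shBLACAT3 cells: 20 of the 30 tested genes fell and 0 rose at an adjusted p under 0.05 (limma on log2(FPKM + 1), adjusted over all 10008 genes), where 6.8% of all tested genes fell and 2.57% rose. The deepest changes were those of IFI44 and RSAD2, with log2 fold changes of -4.57 and -4.31. At the other end stood SP100 and SHISA5, whose shBLACAT3 means were 100.4% and 98.5% of their shControl means. In 35 of the 38 genes with values each shBLACAT3 library lay below each shControl library, against 20% of all 11079 genes, and GBP3, SHISA5 and SP100 were the genes whose groups overlapped. Among the 35, IFI44L, ISG20, IFI27, TRIM22, XAF1, GBP2, DDX60L, RSAD2, BST2, CMPK2 and IFITM1 had values only through shControl. Their separation is thus in part fixed in advance. The median log2 fold change of the 30 tested genes was -0.76, beside -0.0025 for all tested genes. RNA from whole cultures cannot tell fewer cells with an active response apart from less RNA in each cell.

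**Figure D1:**
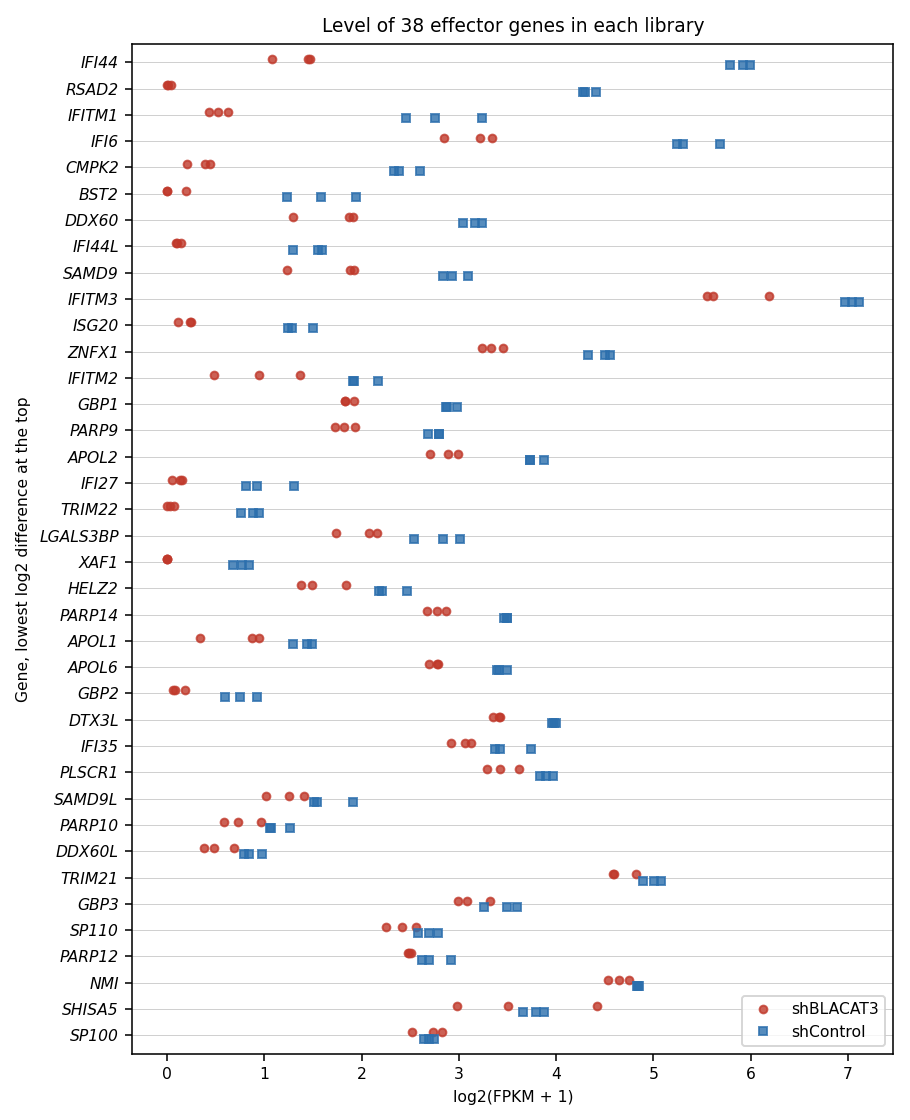
Level of the 38 effector genes in each library, as log2(FPKM + 1), with 3 shBLACAT3 libraries (circles) and 3 shControl libraries (squares) per gene and genes ordered from the lowest log2 difference. The groups are separate in all rows but those of GBP3, SHISA5 and SP100. For genes with shBLACAT3 means under 0.501 FPKM the gap is in part fixed, since they had values only through shControl.

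Read as the share of the shControl mean that was left in shBLACAT3, without a pseudocount, 10 genes stood under 10%, against 0.686% of all genes with values. They were XAF1, RSAD2, BST2, IFI44, TRIM22, IFI44L, CMPK2, IFITM1, IFI27 and ISG20. In all, 22 genes stood at 50% or less, against 4.34% of all genes, and 16 above it. RSAD2, BST2, TRIM22 and XAF1 had at least 1 shBLACAT3 library listed at 0, which with FPKM may also stand for an estimate that failed. The 8 genes with a mean under 1 FPKM had values because the higher group mean reached 0.501, the lowest in the table, and in all of them but PARP10 the shBLACAT3 mean lay under that level, so the gap between their groups is in part fixed by that filter. Among the tested genes, RSAD2, BST2, CMPK2, IFITM1, IFITM2 and APOL1 had shBLACAT3 means under 1 FPKM and reached the test through shControl. The order differs by scale, and XAF1 is 20th of 38 by the log2 difference, which is compressed for low genes.

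**Figure D2:**
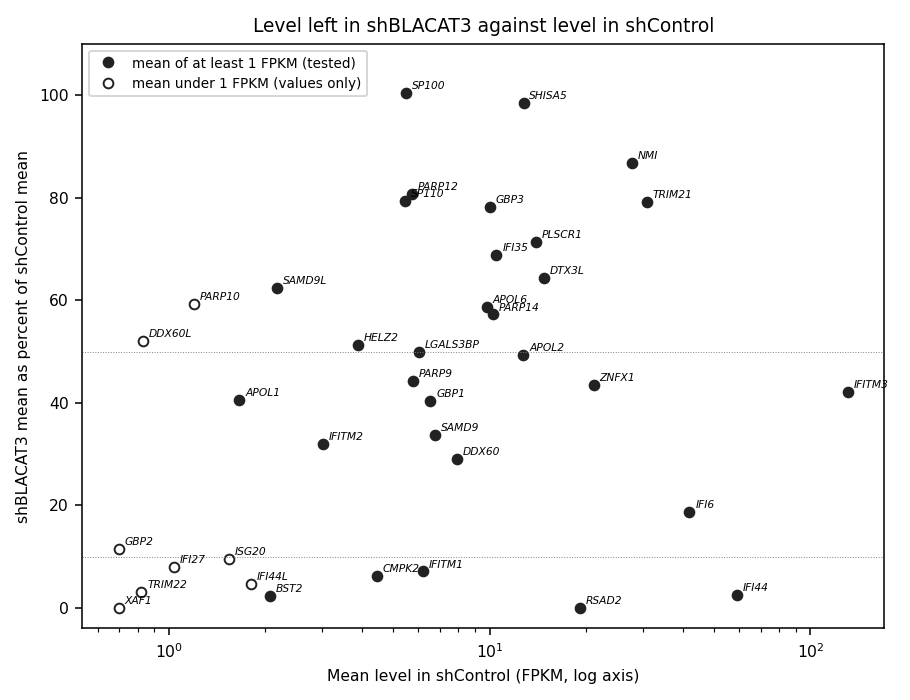
Mean in shBLACAT3 as a percent of the mean in shControl (vertical axis) against the mean in shControl in FPKM (horizontal log axis) for 38 genes, with dotted lines at 10% and 50%. Filled points are the 30 tested genes and open points the 8 with a mean under 1 FPKM, and 10 genes lie under the lower line.

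Among the genes named IFI and the partner of IFI35, 2 of 4 tested fell, beside 6.8% of all tested genes. IFI44, a cytoplasmic protein that restrains several viruses, had 1.73, 1.78 and 1.11 FPKM in shBLACAT3, against 59.8, 62.9 and 54.1 FPKM in shControl. All 3 shBLACAT3 values were thus far below the lowest control value, with a log2 fold change of -4.57 (SE 0.13, adjusted p 6.31e-06), the fifth lowest of the 10008 tested genes. IFI44L, its neighbour and paralog, was at 0.108, 0.0657 and 0.0773 FPKM in shBLACAT3 and at 1.94, 2.03 and 1.46 FPKM in shControl, a mean under the level for testing. IFI6, a membrane protein that blocks the replication compartments of flaviviruses, had 9.15, 8.29 and 6.19 FPKM in shBLACAT3 and 50.3, 38.6 and 37.0 FPKM in shControl, with a log2 fold change of -2.28 (SE 0.16, adjusted p 0.00052).

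IFI27, a small mitochondrial protein, had 0.1, 0.0397 and 0.112 FPKM in shBLACAT3 and 1.47, 0.754 and 0.897 FPKM in shControl, also under the level for testing. The groups of IFI44L and IFI27 did not overlap, a gap that is in part fixed by the table's floor of 0.501 FPKM. IFI35 and NMI, whose proteins bind each other, changed least here. IFI35 averaged 7.23 ± 0.58 FPKM in shBLACAT3 and 10.5 ± 1.67 FPKM in shControl (SD, n = 3 each) and did not pass (log2 fold change -0.48, 95% interval -0.76 to -0.19, adjusted p 0.055). NMI had 22.2, 25.9 and 24.1 FPKM in shBLACAT3 and 27.8, 27.5 and 27.9 FPKM in shControl, without overlap, and kept 86.8% of its shControl mean (log2 fold change -0.20, 95% interval -0.37 to -0.03, adjusted p 0.14), and it carries an ISRE core.

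The enzymes that act on nucleotides and RNA held 5 tested genes, and all 5 fell, beside 6.8% of all tested genes. RSAD2 and CMPK2 had shBLACAT3 means under 1 FPKM and reached the test only through shControl. RSAD2, viperin, turns CTP into a chain terminator of viral polymerases. It was listed at 0.0316, 0 and 0.0103 FPKM in shBLACAT3 and at 20.3, 18.6 and 18.4 FPKM in shControl (log2 fold change -4.31, SE 0.08, adjusted p 6.85e-07). CMPK2, a mitochondrial nucleotide kinase, had 0.158, 0.311 and 0.356 FPKM in shBLACAT3, against 5.06, 4.22 and 4.05 FPKM in shControl, with a log2 fold change of -2.09 (SE 0.11, adjusted p 0.00011). Both were thus far lower in every shBLACAT3 library, by a log2 fold change of -7.40 for RSAD2 and -3.63 for CMPK2 with a pseudocount of 0.1 in place of 1. DDX60, a helicase-like promoter of RNA sensing, stood at 2.66, 2.78 and 1.46 FPKM in shBLACAT3 and 8.47, 7.98 and 7.25 FPKM in shControl (log2 fold change -1.46, SE 0.17, adjusted p 0.0041).

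ZNFX1, a helicase that recognises double-stranded RNA, fell by 1.12 on the log2 scale, with 9.03, 8.47 and 9.98 FPKM in shBLACAT3 and 22.5, 19.1 and 21.6 FPKM in shControl (adjusted p 0.00082). HELZ2, a helicase and transcriptional coactivator, had 2.59, 1.60 and 1.80 FPKM in shBLACAT3 and 4.54, 3.54 and 3.62 FPKM in shControl (log2 fold change -0.72, adjusted p 0.031), and this call held in the absence of shBLACAT3 replicate 1 but of no other library (adjusted p up to 0.11). The exonuclease gene ISG20 and the helicase-like gene DDX60L had means under 1 FPKM. ISG20 had 0.175, 0.0815 and 0.187 FPKM in shBLACAT3 and 1.37, 1.44 and 1.83 FPKM in shControl. DDX60L had 0.399, 0.607 and 0.298 FPKM in shBLACAT3 and 0.736, 0.972 and 0.793 FPKM in shControl, so it kept 52.1% where DDX60 kept 29.1%.

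Membrane proteins that block entry or release gave 5 tested genes, and all 5 fell, beside 6.8% of all tested genes. IFITM1, IFITM2 and BST2 had shBLACAT3 means under 1 FPKM and reached the test only through shControl. IFITM3, which stops viruses from fusing in endosomes, was the most abundant of the effectors per length, with 45.8, 47.8 and 71.7 FPKM in shBLACAT3 and 137, 131 and 124 FPKM in shControl (log2 fold change -1.26, SE 0.17, adjusted p 0.0063). Replicate 3 of shBLACAT3 lay above the other two yet below all controls. IFITM1, which acts at the cell surface, had 0.438, 0.349 and 0.543 FPKM in shBLACAT3 and 8.43, 5.74 and 4.48 FPKM in shControl (log2 fold change -2.29, SE 0.19, adjusted p 0.00099). IFITM2 averaged 0.968 ± 0.59 FPKM in shBLACAT3 and 3.02 ± 0.41 FPKM in shControl, with a log2 fold change of -1.07 and an adjusted p of 0.03 (SD, n = 3 each). With a pseudocount of 0.1 the log2 fold change was -3.51 for IFITM1, and -1.71 for IFITM2, whose adjusted p was then 0.0545. The call for IFITM2 was also lost without any of the 3 shControl libraries or without shBLACAT3 replicate 1 (adjusted p 0.083 to 0.11). The 3 IFITM genes are near-identical neighbours, so the split of fragments between them is uncertain.

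BST2, tetherin, which holds budding virions at the cell surface, was listed at 0, 0 and 0.145 FPKM in shBLACAT3 and at 2.84, 2.0 and 1.35 FPKM in shControl. Its log2 fold change was -1.52 (SE 0.18, adjusted p 0.004), and it passed whichever library was left out. That size depends on the pseudocount, since with 0.1 it was -3.94 (adjusted p 0.0033). The mean of BST2 over all libraries, 1.06 FPKM, reached the level for testing only through shControl. That filter was kept on all libraries when 1 was left out. PLSCR1, a phospholipid scramblase, had the smallest change of this role, with 8.75, 11.3 and 9.74 FPKM in shBLACAT3 and 14.6, 13.3 and 13.9 FPKM in shControl (log2 fold change -0.46, adjusted p 0.036). This call was lost without any library other than shBLACAT3 replicate 2, with adjusted p up to 0.14.

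**Figure D3:**
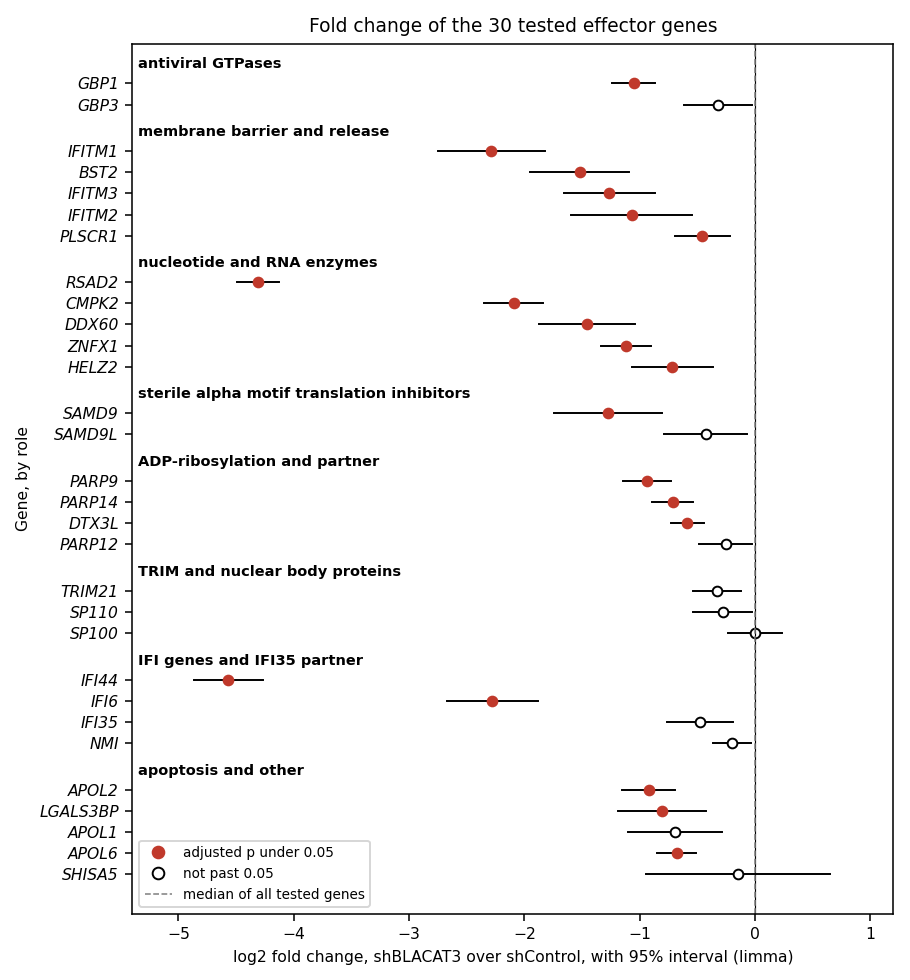
Log2 fold change of shBLACAT3 over shControl with its 95% interval from limma for the 30 tested genes, grouped by role, with filled points for an adjusted p under 0.05 and a dashed line at the median of all tested genes. IFI44 and RSAD2 stand apart at -4.57 and -4.31, and the 3 tested TRIM and nuclear body genes are all open.

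The antiviral GTPases were represented by guanylate-binding proteins, which coat pathogen membranes and are known as targets of type II interferon. GBP1 had 2.8, 2.55 and 2.56 FPKM in shBLACAT3 and 6.93, 6.35 and 6.32 FPKM in shControl, with a log2 fold change of -1.05 (SE 0.08, adjusted p 0.00058). GBP3 had 6.97, 9.0 and 7.47 FPKM in shBLACAT3 and 10.3, 11.1 and 8.59 FPKM in shControl, where the groups overlapped and the change did not pass (log2 fold change -0.32, 95% interval -0.62 to -0.02, adjusted p 0.17). GBP2, too low to be tested, had 0.0601, 0.0467 and 0.135 FPKM in shBLACAT3 and 0.899, 0.679 and 0.515 FPKM in shControl. The 3 genes lie side by side and are similar in sequence.

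SAMD9 and SAMD9L are paralogs that shut down translation in infected cells, and only SAMD9 passed the threshold. Whether they moved by different amounts could not be settled, since 3 against 3 libraries cannot pass an exact permutation test (p 0.1). SAMD9 had 2.69, 2.81 and 1.35 FPKM in shBLACAT3 and 6.61, 7.56 and 6.13 FPKM in shControl (log2 fold change -1.27, SE 0.20, adjusted p 0.012). This call was lost without shControl replicate 1 (adjusted p 0.0504). SAMD9L had 1.66, 1.38 and 1.02 FPKM in shBLACAT3 and 1.84, 2.77 and 1.91 FPKM in shControl, and did not pass (log2 fold change -0.43, 95% interval -0.79 to -0.07, adjusted p 0.14, and -0.65 with a pseudocount of 0.1).

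Enzymes of ADP-ribosylation and their partner had 3 of 4 tested genes lower, beside 6.8% of all tested genes. PARP9 and its partner DTX3L, a ubiquitin ligase, work as a complex. PARP9 had 2.54, 2.82 and 2.31 FPKM in shBLACAT3 and 5.95, 5.96 and 5.43 FPKM in shControl (log2 fold change -0.93, SE 0.09, adjusted p 0.0016). DTX3L averaged 9.53 ± 0.26 FPKM in shBLACAT3 and 14.8 ± 0.23 FPKM in shControl (log2 fold change -0.59, adjusted p 0.0022). PARP14, a mono-ADP-ribosyltransferase, fell by 0.71 on the log2 scale (5.85 ± 0.45 and 10.2 ± 0.14 FPKM, adjusted p 0.0025). These 3 calls held with each library left out in turn.

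PARP12, a zinc finger member of the family, had 4.57, 4.62 and 4.68 FPKM in shBLACAT3 and 5.16, 5.48 and 6.54 FPKM in shControl and did not pass (log2 fold change -0.25, 95% interval -0.48 to -0.03, adjusted p 0.16). PARP10 had a mean under 1 FPKM and kept 59.3% of its shControl mean, with 0.711 ± 0.23 and 1.2 ± 0.18 FPKM. Neither group of values overlapped the other for PARP12 or PARP10.

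TRIM and nuclear body genes had 0 of 3 tested genes past the threshold in limma and 2 at an unadjusted p under 0.05. SP100, a scaffold of nuclear bodies, had 5.65, 6.10 and 4.74 FPKM in shBLACAT3 and 5.46, 5.71 and 5.26 FPKM in shControl, with overlapping groups and a 95% interval of -0.24 to 0.24 around a log2 fold change near 0, whose sign turned with the scaling of the libraries. SP110, its relative, kept 79.4% (4.33 ± 0.57 and 5.46 ± 0.48 FPKM; log2 fold change -0.28, adjusted p 0.17). TRIM21, a cytosolic antibody receptor and ubiquitin ligase, had 23.2, 23.0 and 27.3 FPKM in shBLACAT3 and 31.2, 28.8 and 32.9 FPKM in shControl (log2 fold change -0.33, 95% interval -0.54 to -0.12, adjusted p 0.07), and passed without shBLACAT3 replicate 3 (adjusted p 0.027). TRIM22, a ubiquitin ligase of the same family, was listed at 0.0253, 0 and 0.0506 FPKM in shBLACAT3 and at 0.93, 0.691 and 0.846 FPKM in shControl. It was too low to be tested, and the gap between its groups is in part fixed by the table's floor.

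Of the effectors in apoptosis and other roles, 3 of 5 tested genes fell, beside 6.8% of all tested genes. XAF1, which binds the apoptosis inhibitor XIAP, was listed at 0 in all 3 shBLACAT3 libraries and at 0.789, 0.597 and 0.709 FPKM in shControl. APOL2 and APOL6, intracellular apolipoproteins, fell by 0.92 and 0.68 on the log2 scale (adjusted p 0.0024 and 0.0023). APOL2 had 6.97, 5.51 and 6.39 FPKM in shBLACAT3 and 13.7, 12.3 and 12.3 FPKM in shControl. APOL6 averaged 5.75 ± 0.24 FPKM in shBLACAT3 and 9.80 ± 0.39 FPKM in shControl (SD, n = 3 each). APOL1, the secreted trypanosome-lysing member, had 0.929, 0.831 and 0.262 FPKM in shBLACAT3 and 1.82, 1.70 and 1.46 FPKM in shControl, and did not pass (log2 fold change -0.69, adjusted p 0.053, and -1.32 with a pseudocount of 0.1). It passed without shBLACAT3 replicate 3 (0.031), its lowest library.

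LGALS3BP, a secreted glycoprotein that binds galectins, had 3.21, 2.34 and 3.47 FPKM in shBLACAT3 and 7.08, 6.15 and 4.81 FPKM in shControl (log2 fold change -0.81, adjusted p 0.028). Its call was lost without shControl replicate 1 or 2 or shBLACAT3 replicate 1 or 2 (adjusted p 0.061 to 0.098). SHISA5, an endoplasmic reticulum protein linked to p53, had 10.4, 6.90 and 20.4 FPKM in shBLACAT3, a wider range than the 13.7, 11.7 and 12.9 FPKM of shControl, which lay inside it (log2 fold change -0.14, 95% interval -0.94 to 0.66, adjusted p 0.83). Its sign turned without shBLACAT3 replicate 2, to 0.18.

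Of the 20 genes that fell, 15 kept their call whichever of the 6 libraries was left out. The other 5 were SAMD9, IFITM2, LGALS3BP, HELZ2 and PLSCR1. In 23 of the 38 genes shControl replicate 1 was the highest control, beside 38.1% of all genes, and in 22 shControl replicate 3 was the lowest, beside 37.1%. Within shBLACAT3 the highest library was replicate 1 in 11 genes, replicate 2 in 12 and replicate 3 in 13. The FPKM values of the 38 genes summed to 210, 212 and 243 in shBLACAT3 replicates 1, 2 and 3 and to 538, 501 and 483 in shControl replicates 1, 2 and 3.

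Many of the effectors are neighbours in the genome, and their ratio within a library shows whether a pair moved by the same amount. The difference in this log2 ratio was tested in 13 pairs, where 3 against 3 libraries cannot give a two-sided exact permutation p below 0.10 (0.118 adjusted over the 13 pairs). In 11 pairs the groups did not overlap, with that smallest p. How often other pairs of genes separate was not computed, so this count has no background. IFI44L, DDX60L, GBP2 and TRIM22 belong to such pairs and averaged under 1 FPKM. The gap between their groups is in part fixed by the table's floor of 0.501 FPKM. IFI44 over IFI44L had a log2 ratio of 1.22 ± 0.22 in shBLACAT3 and 4.42 ± 0.06 in shControl (SD, n = 3 each). RSAD2 over CMPK2 had a log2 ratio of -0.33 ± 0.14 in shBLACAT3 and 1.89 ± 0.07 in shControl. DDX60 over DDX60L stood at 1.18 ± 0.24 and 2.28 ± 0.15 in the same order, and SAMD9 over SAMD9L at 0.45 ± 0.23 and 1.30 ± 0.12.

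With a pseudocount of 1 the ratio is compressed where a partner is low, as in IFI44L, CMPK2 and DDX60L, and the order of the pairs depends on it. The difference of shBLACAT3 minus shControl was -3.20 for IFI44 over IFI44L and -2.21 for RSAD2 over CMPK2 with this pseudocount, but -1.82 and -3.77 with a pseudocount of 0.1. Without a pseudocount, IFI44 kept 2.61% of its shControl mean and IFI44L 4.62%, and RSAD2 kept 0.0732% and CMPK2 6.19%. GBP1 over GBP2 stood at 1.75 ± 0.10 in shBLACAT3 and 2.15 ± 0.11 in shControl, and this difference turned from -0.40 to 0.87 with a pseudocount of 0.1. APOL1 over APOL2 and IFITM2 over IFITM3 had overlapping groups (exact permutation p 0.4 and 0.3), and their differences also turned in sign with that pseudocount.

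**Figure D4:**
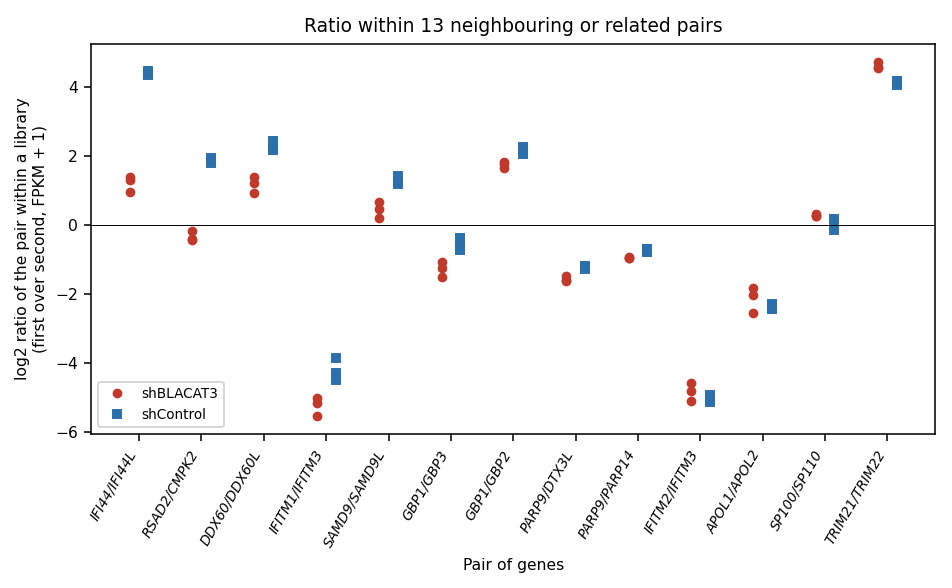
Log2 ratio of the first gene over the second within each library, on FPKM + 1, for 13 neighbouring or related pairs, with 3 shBLACAT3 libraries (circles) left of 3 shControl libraries (squares). On this scale the difference is -3.20 for IFI44/IFI44L and -2.21 for RSAD2/CMPK2, and the groups overlap in APOL1/APOL2 and IFITM2/IFITM3.

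Among these pairs are genes that start close to each other. RSAD2 and CMPK2 run in opposite directions, and RefSeq lists starts of the 2 genes 22 and 66 bases apart on chromosome 2. PARP9 and DTX3L also run in opposite directions, with starts 38 bases apart on chromosome 3. The ISRE core printed for PARP9 covers the DTX3L start, with 6 of its bases before that start and 4 from it on. The library kit keeps the strand, but the strand setting of the counting is not given in the sources used here, so reads near such starts may not be cleanly split. The core printed for RSAD2 lies before another listed start of that gene, outside the windows of CMPK2, and those windows held no core. Which of the listed starts these cells use was not tested.

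Set beside the change, the 19 genes with values and an ISRE core kept a median of 33.7% of their shControl mean (range 0.0732% to 86.8%), and 7 of them were under 10%. The 11 genes with a window but no core kept a median of 68.8% (0% to 100%), and 2 of these, CMPK2 and XAF1, were under 10%. Of the genes under 10%, IFI44L, IFI27 and ISG20 with a core and XAF1 without averaged under 1 FPKM. Their gap is in part fixed by the table's floor. RSAD2, BST2 and IFITM1 with a core and CMPK2 without also had shBLACAT3 means under that floor of 0.501 FPKM. These genes had values only through shControl. DTX3L was counted without a core, since the PARP9 core lies only partly before its start. The 8 genes with values and no window kept a median of 42.0%. Genes with a core thus ranged from RSAD2 to NMI, PARP12 and PLSCR1, which kept 71.3% to 86.8%. IFI6 held 3 separate cores. IFI44L, IFI27, DDX60, IFITM3 and DDX60L, which kept 4.62% to 52.1%, held 2 separate cores each, and BST2 held 2 that overlap. GAS, searched as TTC, any 3 bases and GAA, was found in 10 of 32 genes and in 8.09% of all genes with a window, and in 4 of the 10 it overlapped an ISRE core. The 8 genes with values and a GAS match kept a median of 43.2% and the 22 without kept 47.1%. These matches are letters in a window and do not show that a factor binds there.

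**Figure D5:**
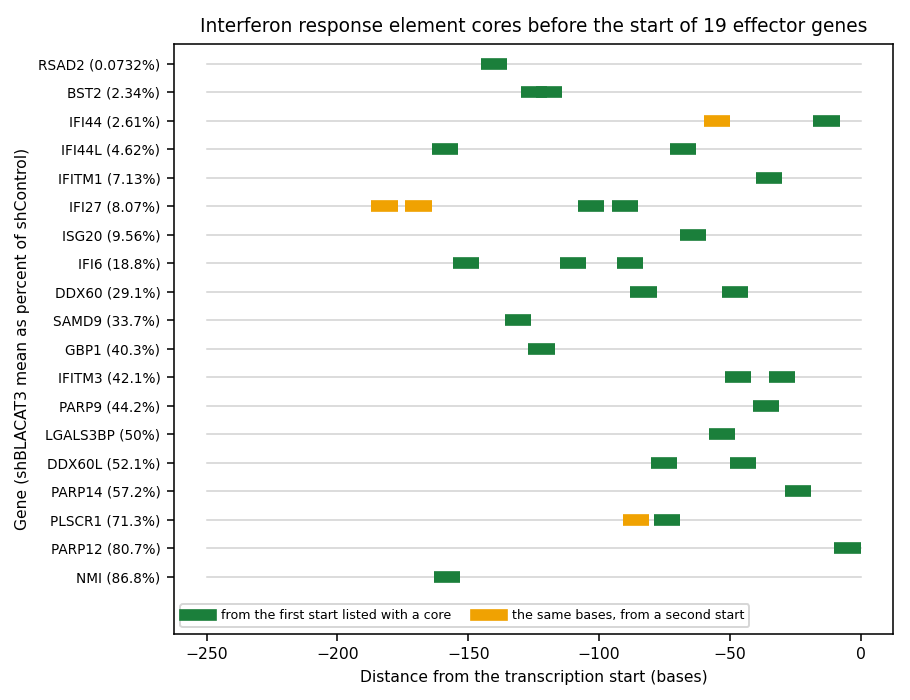
Position of the ISRE core before the transcription start, in bases, for the 19 genes with values and a match, ordered by the shBLACAT3 mean as a percent of the shControl mean. Yellow bars are the same bases counted from a second start of the gene, and genes at both ends of the order, from RSAD2 to NMI, carry a core.

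Other genes of the interferon pathway were read from 5 lists with 43 genes with values, of which 41 were tested and 20 fell and 0 rose. Among all tested genes the shares were 6.8% and 2.57%. Of the antiviral list of IFIT, oligoadenylate synthetase and ISG15 genes 12 of 12 tested members fell, led by OASL, IFIT1 and IFIT2 with log2 fold changes of -5.25, -5.06 and -5.04. IFIT5 had the smallest change of the tested members, -0.57 (adjusted p 0.037). Its call was lost without shControl replicate 1 or 2 or shBLACAT3 replicate 1 or 3. Of the nucleic acid sensors, 3 of 7 tested fell: the RNA helicases IFIH1 and RIGI by 2.23 and 1.75, and the endosomal receptor TLR3 by 0.46 on the log2 scale. The TLR3 call held in the absence of shBLACAT3 replicate 3 but of no other library. CGAS, the DNA sensor, had 18.8 ± 0.03 FPKM in shBLACAT3 and 17.9 ± 1.77 FPKM in shControl (adjusted p 0.62).

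The receptors, kinases, transcription factors and inhibitors of the pathway were also read. Of 9 receptors and kinases 1 fell, beside 6.8% of all tested genes. It was IFNLR1, the specific chain of the type III interferon receptor, lower by 0.50 (adjusted p 0.031). Its call was lost without shControl replicate 1 or 2 or shBLACAT3 replicate 1 or 2 (adjusted p 0.0763 to 0.0931 in limma). IFNAR2 (-0.39, adjusted p 0.056) and IFNGR2 (-0.39, adjusted p 0.22) did not pass, and IFNAR1 had the highest log2 fold change, 0.12. Of 8 transcription factors IRF1 and IRF7 fell, by 0.72 and 0.48 (adjusted p 0.004 and 0.048). The IRF7 call was lost whichever library was left out (adjusted p 0.0555 to 0.155 in limma). IRF9, a DNA-binding partner of STAT2, had 3.56 ± 1.21 FPKM in shBLACAT3 and 5.57 ± 1.84 FPKM in shControl and did not pass (adjusted p 0.3), and STAT2 had the highest change of the list, -0.13. Of 5 feedback inhibitors USP18 and SOCS3 fell, by 0.90 and 0.65, and SOCS1 (-0.03) and PIAS1 (0.17) did not pass.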

How the data were processed

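Libraries were made from total RNA with a strand-aware kit, per the labels' protocols. Cutadapt, HISAT2 2.1.0 and StringTie are named, with no role or order, per the submitters' processing notes. Neither genome build nor annotation is stated there. The deposited values were read as FPKM, since they are not whole numbers and sum to different totals. They carry no read counts, so depth is unknown and no count test was run. In every row the higher group mean was at least 0.501.

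Columns headed NC and SH were read as shControl and shBLACAT3. Of 11081 rows, 11007 matched a symbol, and rows of the 2 repeated symbols were summed. The test was limma 3.58.1 (R 4.3.3) on log2(FPKM + 1) for genes that averaged 1 FPKM or more (group as the only term, mean-variance trend, two-sided, Benjamini-Hochberg adjustment over 10008 genes, threshold 0.05), which was checked on simulated data. Pairs were tested with an exact permutation test. Promoter windows came from RefSeq on GRCh38.p14. All 41 effectors could be named, with values per library for the 10 lowest and the 3 highest log2 fold changes and the extremes of each role. Pathway genes named were the 3 lowest and the highest of each list, and others beyond this rule were chosen after their values were seen. The effectors and lists were chosen with earlier results of these data known. Other settings were a replicate block, a pseudocount of 0.1, no filter, a filter at 5 FPKM, median scaling, quantile normalization, no trend, and each library left out.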

Additional observations from a re-analysis of the deposited data

How the results depend on the processing

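Depth is unknown, so genes under about 1 FPKM in shBLACAT3, among them XAF1, BST2 and RSAD2, are limited by what an exact 0 means. The count of effectors that fell was 15 to 20 with each library left out and 18 with the replicate block. It was 27 of 38 with no filter and 11 of 18 with a filter at a mean of 5 FPKM, where fewer genes were tested. All genes gained with no filter, except APOL1, had shBLACAT3 means under the table's floor of 0.501 FPKM. The gap between their groups is thus in part fixed by that floor. The count of effectors that rose was 0 in every setting. The median log2 fold change of the effectors was -1.0 with a pseudocount of 0.1, -0.63 with the filter at 5 FPKM and -0.85 to -0.70 with a library left out. Pathway genes that fell numbered 13 with the filter at 5 FPKM. All tested genes that fell numbered 681, with 451 under the replicate block and 341 with the filter at 5 FPKM. They numbered 895 of 11079 with no filter and 302 to 732 with a library left out. Those that rose numbered 257, with 161 under the block, 291 with no filter and 85 to 583 with a library left out. The replicate numbers did not pair the libraries by the rule used (correlations of deviations 0.1, 0.117 and 0.09), though each library correlated best with its own number. With the block IFITM2, LGALS3BP and PLSCR1 lost their call and APOL1 gained one. IFITM2 also lost it with the pseudocount of 0.1, and APOL1 also gained one with median scaling and with no filter. The sign of SP100 turned with median scaling (0.005), quantile normalization (0.0005) and with libraries left out (-0.067 to 0.086), and that of SHISA5 ranged from -0.53 to 0.18 with a library left out. Pair differences that turned with the pseudocount of 0.1 were GBP1/GBP2 (0.87), APOL1/APOL2 (-0.31) and IFITM2/IFITM3 (-0.43). The causes were not tested. The block was not run on the pairs.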
